A study of Mus musculus with 4 samples.

Results

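Apoe-rich microglia were the cells with the highest Apoe share among single microglia of young mouse brain after whole-brain irradiation or sham handling. Cells from all 4 libraries entered when they had at least 1000 UMIs (molecular tags that count each captured transcript once), 500 detected genes, at most 10% mitochondrial UMIs, at least 1 UMI of the microglial gene Tmem119 and no UMI of the border macrophage genes Mrc1 and Pf4. Apoe-rich cells were chosen by their measured Apoe share of UMIs, as the 5% with the largest share over the pooled libraries. This gave 391 Apoe-rich cells of 7823 such microglia and of 8486 deposited barcodes, of which 8369 passed the depth and mitochondrial limits and for which the design text states 8095 cells. The remaining 7432 microglia were the comparison.

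The libraries were droplet single-cell RNA-seq of C57BL/6 mice, and each was 1 pool of 4 mice. The groups were sham at 6 h, irradiated at 6 h after a single dose of 8 Gy, sham at 1 week and irradiated at 1 week, with 1 library each. The labels give the age as postnatal day 21 for every library, also for those taken at 1 week. They name the source as brain, whereas the design text speaks of the hippocampus. The single-cell data were collected to see if genes that respond to irradiation are on in one and the same microglia, or if the population is mixed.

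Apoe encodes apolipoprotein E, which carries cholesterol and phospholipids between brain cells in lipoprotein particles. Astrocytes make most of it in the healthy brain, and microglia raise it when they engulf myelin, debris or dying cells. Microglia in neurodegeneration raise Apoe through the lipid-sensing receptor Trem2, together with lysosomal and lipid genes, while markers of resting microglia fall. A similar set marks microglia near developing axon tracts in early postnatal life.

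Apoe (ENSMUSG00000002985, mm10 chr7:19696109-19699188, minus strand) made up 0.723% of UMIs in the lowest Apoe-rich cell, 1.01% in the median cell and 6.56% in the highest. The values just inside the threshold were 0.7232% and 0.7239%, and those just outside were 0.7219% in both of the nearest cells, so the threshold cut a continuous range. Over all 7823 microglia the median was 0.0663%, and 2134 cells (27.3%) had no Apoe UMI. Of the Apoe-rich cells, 192 lay below 1% and 35 above 2%. Because Apoe chose the cells, these values are a description and were not tested.

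Apoe-rich cells made up 8.26% of microglia in the sham library at 6 h (205 of 2482 cells, exact Clopper-Pearson 95% interval 7.21 to 9.41%). The share was 5.44% in irradiated at 6 h (100 of 1837, 4.45 to 6.58%), 2.33% in sham at 1 week (35 of 1501, 1.63 to 3.23%) and 2.55% in irradiated at 1 week (51 of 2003, 1.90 to 3.33%). Both libraries at 6 h thus held a larger share than both at 1 week, and the intervals of sham and irradiated overlapped at 1 week but not at 6 h. The intervals cover counting error only, and with 1 library per group the shares were not tested.

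**Figure D1:**
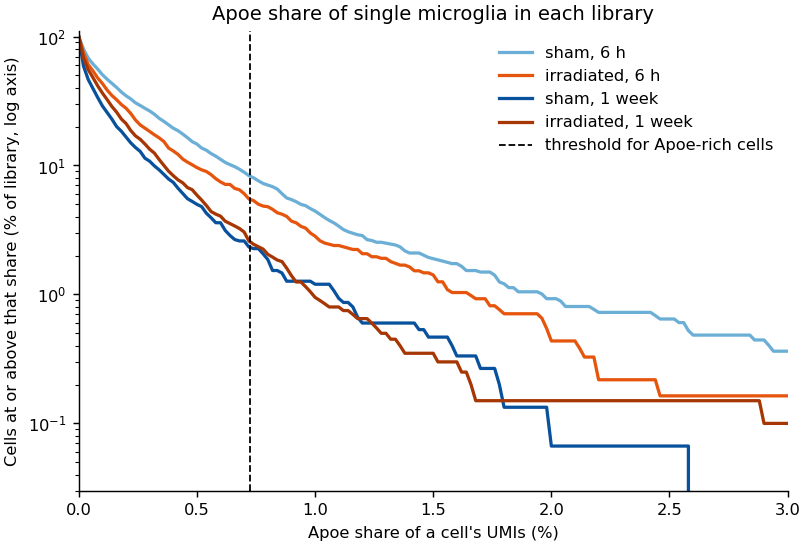
Percentage of microglia in each library (y axis, log scale) whose Apoe share of UMIs (x axis, %, drawn up to 3%) was at or above a given value. At the dashed threshold of 0.723% the curves stand at 8.26% for sham at 6 h, 5.44% for irradiated at 6 h, 2.33% for sham at 1 week and 2.55% for irradiated at 1 week, and no curve has a step there.

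The libraries held 5706955 to 9760928 UMIs. Apoe-rich cells had median depths of 3883, 4196, 4399 and 3582 UMIs (sham 6 h, irradiated 6 h, sham 1 week, irradiated 1 week, the order used throughout), and the other microglia had 3503, 3504, 3592 and 3421. Their median mitochondrial share was 1.37, 1.36, 2.15 and 1.36% against 1.09, 1.07, 1.28 and 1.20%. The part of depth and mitochondrial share in the results was not tested, apart from the depth limits given in the closing section. Scrublet called 54 barcodes (0.645%) as doublets, 2 of them Apoe-rich. Its low rate means that doublets may remain. Between libraries 36 barcodes were shared, and 2 Apoe-rich cells carried one. The cell rule left out 149 cells without Tmem119, of which 27 passed the Apoe threshold, and 397 cells with Mrc1 or Pf4, of which 37 passed it.

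The label microglia was checked against markers. The summed level of 10 microglia markers other than Tmem119 was 24605 to 38928 CPM (UMIs of a gene per 1000000 UMIs of the summed class) in Apoe-rich cells and 31183 to 43191 CPM in the others. Of 5 defining border macrophage markers, Cd163, Lyve1 and F13a1 had no UMI in either class. Ms4a7 had 6 UMIs in Apoe-rich cells, all in irradiated at 6 h, against 3 in the others. Cbr2 had 3 UMIs in Apoe-rich cells against 26. All 5 together had 9 UMIs in Apoe-rich cells (5.73 CPM) and 29 in the others (1.08 CPM). The full border macrophage list of 14 genes summed to 632 to 828 CPM against 779.9 to 960.2 CPM. It includes Maf, which is also in the homeostatic list used below and was called lower there. Its sum without Maf was not taken, so the sum cannot tell the classes apart by border macrophage genes. Defining astrocyte markers were at 15.9 CPM (25 UMIs, 17 of them Aldoc) against 2.84 CPM (76 UMIs). Aqp4 had 0 UMIs against 2, too few to tell the classes apart. The astrocyte list of 15 summed to 108 to 266 CPM against 158 to 271 CPM. Aldoc was itself called higher in the test given next (2.89 ± 0.60). Defining oligodendrocyte markers were at 25.5 against 15.5 CPM (40 UMIs in Apoe-rich cells). Those of the 9 remaining types had 0 to 2 UMIs each in Apoe-rich cells and 0 to 39 in the others, too few to tell the classes apart. The defining neutrophil markers had no UMI in either class. Defining monocyte markers were at 21.7 against 17.6 CPM. Ly6c2 had no UMI in either class and Vcan had 0 UMIs against 7, so their absence cannot tell the classes apart. The monocyte list of 10 summed to 509 to 881 CPM against 187 to 239.7 CPM, and without Lyz2 to 5.41 to 109 CPM against 15.3 to 46.04 CPM. After removal of every cell with a UMI of a defining marker of border macrophages, monocytes, astrocytes or choroid plexus, 353 genes were called as below, against 360 with those cells. The part of such cells in single values was not tested beyond that fit.

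Genes were compared between the 391 Apoe-rich cells and the 7432 others within each library. UMIs were summed over the cells of a class in a library, giving 8 sums, and edgeR's quasi-likelihood test with the library as a block and Benjamini-Hochberg adjustment was run over 11096 genes. The 4 libraries were thus the replicates of the difference, although they are different conditions. Apoe-rich cells were higher for 255 genes (2.3% of those tested) and lower for 105 (0.946%) at an adjusted p under 0.05, or 360 in all (3.24%). Of these, 192 and 95 had the same direction in all 4 libraries. The median log2 difference over all genes was -0.049, and without the irradiated library at 6 h 230 genes were called.

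**Figure D2:**
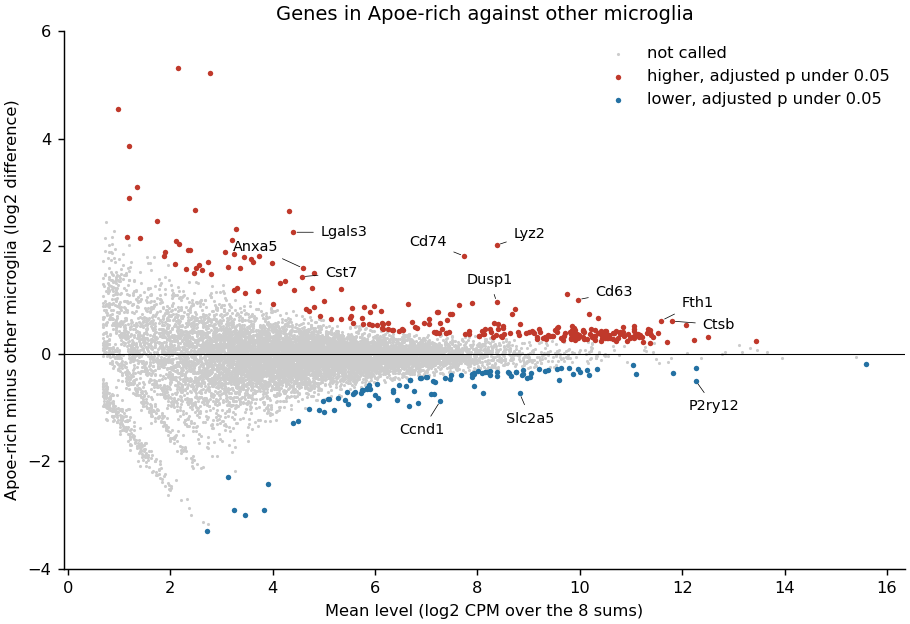
Log2 difference between Apoe-rich and other microglia (y axis) against the mean level of each gene in log2 CPM over the 8 sums (x axis), 1 point per gene. Red points are the 255 genes called higher and blue points the 105 called lower. Lyz2 stands out at 2.02 among well-measured genes, and P2ry12 lies below 0 at -0.50. Birc5, at a fitted value below -4, lies outside the plotted range.

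Lyz2, the macrophage lysozyme gene, had the smallest adjusted p of all genes. In Apoe-rich cells it stood at 838, 740.4, 699.5 and 503 CPM, and in the other microglia at 160.5, 194, 172 and 200.3 CPM. All 4 Apoe-rich sums lay above all 4 others. The log2 difference was 2.02 ± 0.09, a 4.06-fold higher level, with an edgeR quasi-likelihood adjusted p of 1.7e-117. Throughout, ± is the SE from the edgeR fit, which shares variance across genes. It is not the spread between the 4 library pairs. Lyz2 (chr10:117277331-117282321) had a UMI in 258 Apoe-rich cells, and 1 cell held 11.7% of its 1191 UMIs there. Without the highest Apoe-rich cell of each library the log2 difference was 1.73. After thinning to 2000 UMIs, 51.2% of Apoe-rich cells and 23.8% of the others had a Lyz2 UMI, and without thinning 66.0% and 33.7%. Thinning left out 16 Apoe-rich cells and 400 others. No kept class of cells should lack Lyz2, so the share that free RNA gives was not measured.

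Partners of Apoe in lipid handling came next. Of 26 tested genes for apolipoproteins, lipoprotein receptors, lipid uptake and sterol export, 7 were called higher and 0 lower, with a median log2 difference of 0.24 beside -0.049 over all genes. Apoc1, the apolipoprotein C1 gene that lies beside Apoe (chr7:19689481-19692660), had 17, 6, 0 and 0 UMIs in Apoe-rich cells, or 21.1, 14.0, 0 and 0 CPM, against 2.18, 1.56, 0.765 and 0.145 CPM. Its UMIs in Apoe-rich cells thus came only from the libraries at 6 h. The log2 difference was 3.10 ± 0.55. Fabp5, a fatty acid carrier, had 37.2, 58.2, 6.73 and 0 CPM against 5.94, 23.6, 3.25 and 5.79 CPM, a log2 difference of 1.76 ± 0.30, which fell to 1.15 and lost its call without the sham library at 6 h. Lpl, the lipoprotein lipase gene, had 78.1, 168, 67.3 and 81.2 CPM against 52.3, 67.6, 66.6 and 43.1 CPM. Its difference of 0.88 ± 0.14 was 0.60 and not called without the irradiated library at 6 h. Plin2, which coats lipid droplets, was at 0.87 ± 0.15 and Npc2, a lysosomal cholesterol carrier, at 0.39 ± 0.08.

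The cholesterol exporter gene Abca1 was at 0.44 ± 0.13, a call lost in 3 of the 4 fits without 1 library (0.43 without sham at 6 h, 0.42 without irradiated at 6 h, 0.41 without sham at 1 week). Its relative Abcg1 was at 0.45 ± 0.17 and did not pass (adjusted p = 0.17). The receptor gene Lrp1 was at -0.19 ± 0.11 and did not pass (adjusted p = 0.52). Trem2, the receptor that binds lipids and apolipoproteins, stood at 2771, 1753, 2865 and 2981 CPM in Apoe-rich cells and 2534, 1830, 2854 and 2509 CPM in the others. It was higher in 3 libraries and lower in irradiated at 6 h, and its log2 difference was 0.12 ± 0.07 (adjusted p = 0.52). Its adaptor Tyrobp was called at 0.22 ± 0.06, which fits without the irradiated library at 6 h (0.21) or the sham library at 1 week (0.22) did not call. Of 22 tested genes for cholesterol synthesis, 0 were called in either direction, with a median of -0.19.

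**Figure D3:**
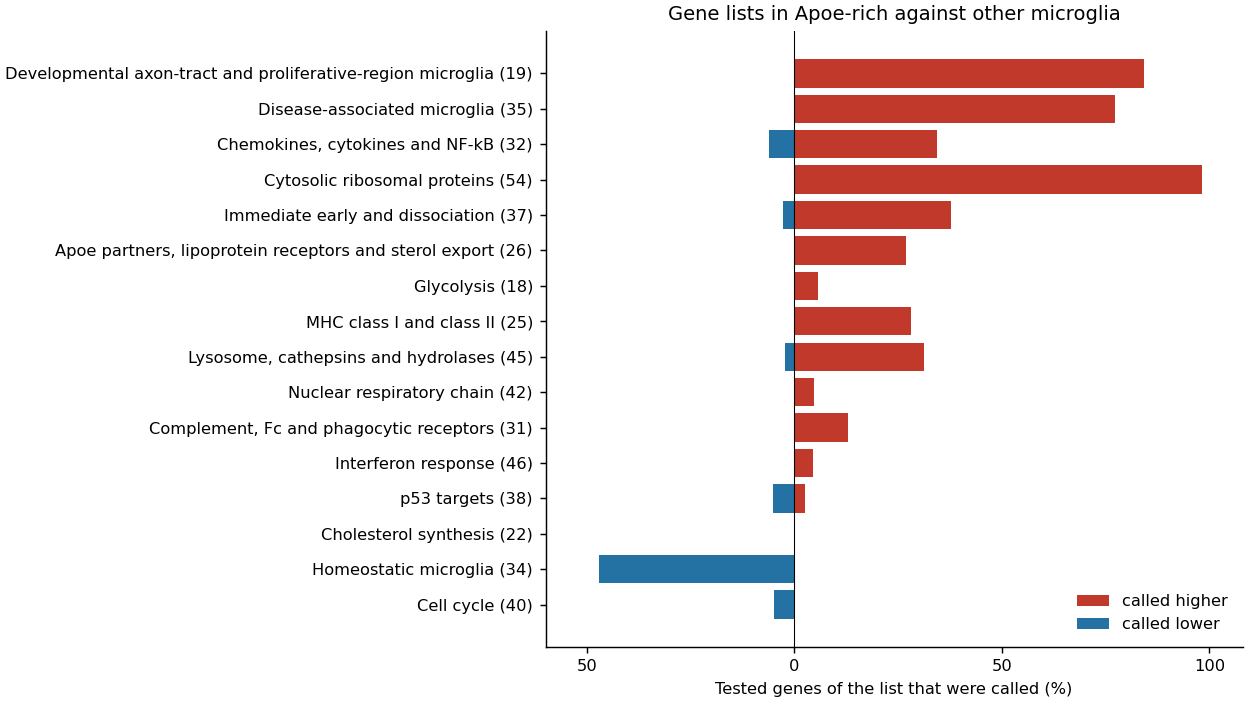
Percentage of the tested genes of each list (number in brackets) that were called higher, to the right, or lower, to the left, in Apoe-rich microglia. Ribosomal protein genes were called higher in 53 of 54 cases and disease-associated genes in 27 of 35, while homeostatic genes were called only lower, 16 of 34.

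Genes that mark disease-associated microglia were mostly higher. Of 35 tested, 27 were called higher and 0 lower, with a median of 0.62. Cd63, a tetraspanin of late endosomes, had 1418, 1935, 1197 and 1066 CPM in Apoe-rich cells and 641, 1026, 625 and 603 CPM in the others. The classes did not overlap, and the log2 difference was 1.01 ± 0.07. Cst7, the cystatin F gene that controls lysosomal proteases (chr2:150570415-150578944), had 42.1, 60.5, 101 and 37.9 CPM against 14.5, 35.9, 17.4 and 15.05 CPM, a difference of 1.43 ± 0.22 that was higher in all 4 libraries. The iron store gene Fth1 was at 0.62 ± 0.07, the protease gene Ctsb at 0.61 ± 0.06 and the tetraspanin gene Cd9 at 0.47 ± 0.07.

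Rarer genes of the same list had larger differences that rested on few cells. Igf1, a growth factor gene, had 42 UMIs in 23 Apoe-rich cells and a log2 difference of 2.67 ± 0.38. Its level was 31.0, 30.3, 0 and 21.6 CPM against 5.33, 3.75, 2.30 and 2.60 CPM. Lgals3, the galectin-3 gene, had 50.8, 184, 6.73 and 5.41 CPM against 5.82, 45.1, 10.7 and 1.88 CPM, a difference of 2.26 ± 0.22. Most of its Apoe-rich UMIs were from the irradiated library at 6 h, and in sham at 1 week the Apoe-rich sum was the lower one, with 1 UMI. The osteopontin gene Spp1 was at 1.89 ± 0.34, the integrin gene Itgax at 2.03 ± 0.46, the phagocytic receptor gene Axl at 1.59 ± 0.33 and Lilrb4a, an inhibitory receptor gene with near-identical relatives, at 2.12 ± 0.34. Without the highest cells none of these 4 was called, with Spp1 at 1.14, Itgax at 1.60, Axl at 1.14 and Lilrb4a at 1.53. Without the sham library at 6 h, Spp1 (1.51) and Itgax (1.28) were no longer called, and without the irradiated library at 6 h Axl (1.64) was not. Without the highest Apoe-rich cell of each library 16 genes of the list were called and its median was 0.49, a step that lowers Apoe-rich sums by construction. Clec7a, another marker of this state, is not reported here.

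Genes of microglia near developing axon tracts and in proliferative regions were called higher in 16 of 19 cases and lower in 0, with a median of 1.16. Of these 16, 11 (68.8%) were also among the 27 called genes (40.7%) of the disease-associated list. Anxa5, an annexin that binds phosphatidylserine, was outside that overlap. It had 44.6, 102, 40.4 and 43.3 CPM against 16.004, 29.2, 20.3 and 16.5 CPM, a log2 difference of 1.59 ± 0.21, with all Apoe-rich sums above the others. Pld3, a lysosomal nuclease, was at 0.74 ± 0.10. Lgals1, the galectin-1 gene, was called at 1.16 ± 0.31, but not without the sham library at 6 h (1.05), without the irradiated library at 6 h (1.12) or without the highest Apoe-rich cell of each library (0.23). Vim, the vimentin gene, was called at 1.94 ± 0.44 from 24 UMIs, but stood at 0.75 and uncalled without cells carrying a marker UMI of another type, and at 1.89 and uncalled without the irradiated library at 6 h.

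**Figure D4:**
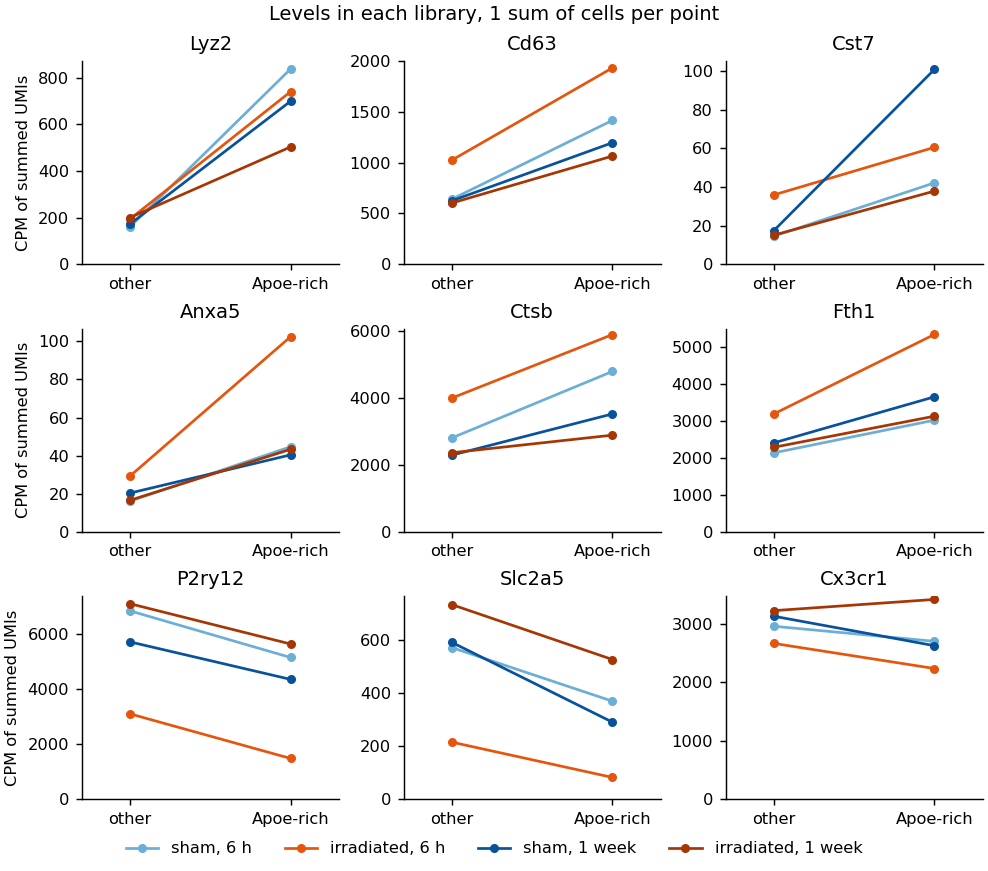
Levels of 9 genes in CPM of summed UMIs (y axis, from 0) in the other and the Apoe-rich microglia of each library, 1 line per library and 1 point per sum. Lyz2, Cd63, Cst7, Anxa5, Ctsb and Fth1 go up in all 4 libraries, P2ry12 and Slc2a5 go down in all 4, and Cx3cr1 goes down in 3 and up in irradiated at 1 week.

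Per cell, the disease-associated list took a median of 4.22% of UMIs in Apoe-rich cells and 3.32% in the others (quartiles 3.36 to 5.52% and 2.82 to 4.02%). It lay above the 90th percentile of the others in 118 Apoe-rich cells (30.2%) and above their median in 301 (77.0%). The distributions therefore overlapped widely. Within the Apoe-rich cells of a library the Spearman correlation of the list with the Apoe share was 0.20 (205 cells), 0.0074 (100 cells), 0.032 (35 cells) and 0.22 (51 cells), over cells that share a library, so it was near 0 in irradiated at 6 h and sham at 1 week.

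Lysosomal genes were partly higher. Of 45 tested, 14 were called higher and 1 lower, with a median of 0.17, and 9 were called higher without the sham library at 6 h. Cst7, Cd63, Ctsb, Ctsz, Ctsl and Ctsd were also among the called genes of the disease-associated list. Ctsb, cathepsin B, had 4796, 5900, 3524 and 2889 CPM in Apoe-rich cells and 2807, 4000, 2291 and 2363 CPM in the others. Each Apoe-rich sum was above that of its own library. Ctsz was at 0.43 ± 0.07, Ctsc at 0.41 ± 0.08, the sphingolipid activator gene Psap at 0.32 ± 0.06, the membrane protein gene Lamp1 at 0.29 ± 0.07 and the cathepsin D gene Ctsd at 0.24 ± 0.06. The proton pump subunit gene Atp6v1a was called at 0.53 ± 0.15, but not without the sham library at 6 h (0.49), where Lamp1 (0.26) was not called either. The member called lower was the protease inhibitor gene Cst3, at -0.20 ± 0.05, which was not called without irradiated at 6 h (-0.15) or irradiated at 1 week (-0.20). Per cell, the median share of UMIs taken by the list was 12.63% in Apoe-rich cells and 12.57% in the others in sham at 6 h, 11.7% against 11.8% in irradiated at 6 h, 12.58% against 12.8% in sham at 1 week and 10.8% against 11.01% in irradiated at 1 week. Apoe-rich cells were thus the lower class in 3 libraries, by small amounts.

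The transcription factor TFEB and its relatives drive lysosomal genes through the palindromic E-box CACGTG. Promoter windows were therefore searched in the 250 bases before the start of each gene, from RefSeq on GRCm38.p6, for 8029 of the 11096 tested genes. CACGTG was in 8.78% of all windows, in 24 of 164 (14.6%) of genes called higher, in 9 of 68 (13.2%) of genes called lower and in 3 of 11 lysosomal genes called higher. These 3 were Atp6v1a, Ctsd and Lamp1, shown with the E-box in capitals.
Atp6v1a, chr16:44139355-44139420, minus strand: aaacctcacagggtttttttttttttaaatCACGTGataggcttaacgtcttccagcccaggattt
Ctsd, chr7:142387890-142387955, minus strand: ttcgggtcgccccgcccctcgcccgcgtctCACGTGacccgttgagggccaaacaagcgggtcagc
Lamp1, chr8:13159070-13159160, plus strand: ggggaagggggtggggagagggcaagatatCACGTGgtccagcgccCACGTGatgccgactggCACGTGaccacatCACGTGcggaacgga
The Lamp1 window holds 4 copies, 61 to 15 bases before the start. Ctsd holds a further copy 245 bases before its start. A match is a description of the sequence and no evidence of binding.

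Markers of resting microglia were lower. Of 34 tested homeostatic genes, 16 were called lower and 0 higher, with a median of -0.24. Without the irradiated library at 6 h 8 were called lower. P2ry12, the purinergic receptor gene by which microglia sense ATP and ADP (chr3:59216272-59262871), had 5147, 1478, 4352 and 5638 CPM in Apoe-rich cells and 6843, 3099, 5714 and 7101 CPM in the others. It was lower in all 4 libraries, by -0.50 ± 0.06 on the log2 scale. Slc2a5, the fructose transporter gene, had 368, 81.5, 289 and 525 CPM against 569.7, 214, 589 and 731 CPM, a difference of -0.74 ± 0.09. The sialomucin gene Cd164 was at -0.74 ± 0.11, the crystallin gene Crybb1 at -0.50 ± 0.08, P2ry13 at -0.38 ± 0.08 and Siglech at -0.29 ± 0.07, the last not called without the irradiated library at 6 h (-0.17). Other markers of microglial identity did not pass. Cx3cr1, the fractalkine receptor gene, was at -0.10 ± 0.07, Csf1r at -0.078 ± 0.06 and the complement gene C1qa at 0.061 ± 0.06 (adjusted p = 0.64, 0.77 and 0.82). Per cell, the list took a median of 10.3% of UMIs in Apoe-rich cells and 11.9% in the others.

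Genes other than homeostatic markers were lower too. The cyclin gene Ccnd1, a member of the p53 list, had 44.6, 161, 13.5 and 129.8 CPM against 84.9, 275, 101 and 228 CPM, a difference of -0.88 ± 0.14 in all 4 libraries. The neuron navigator gene Nav3 was at -0.92 ± 0.15, the adaptor genes Grap and Bank1 at -0.97 ± 0.16 and -0.95 ± 0.20. Il7r, the interleukin-7 receptor gene, was called at -1.09 ± 0.28, but not without the sham library at 6 h (-1.15) or the irradiated library at 1 week (-0.96). Nrarp, a feedback gene of Notch signalling, had 3 UMIs in Apoe-rich cells, and its level in the others was 7.81 times as high (95% interval 2.65 to 38.0, counting error only). Its fitted log2 difference of -2.90 was -2.17 and not called without the sham library at 6 h.

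Cytosolic ribosomal protein genes shifted together by a small amount. Of 54 tested, 53 were called higher and 0 lower, with a median of 0.36. Rps28 had 2358, 2917, 2576 and 2326 CPM against 1880, 2095, 1756 and 1571 CPM, a difference of 0.51 ± 0.07, and all Apoe-rich sums lay above all others. Rpl32 was at 0.50 ± 0.07 and Rpl41 at 0.45 ± 0.07. Ribosomal protein genes have many processed pseudogenes, so single values are uncertain where reads can be shared. The list took a median of 8.15% of UMIs per Apoe-rich cell and 6.598% per other cell. With members limited to the top 2% of Apoe share 21 genes of the list were called. Of 42 nuclear respiratory chain genes 2 were called higher (Uqcrh at 0.45 ± 0.09 and Cox4i1 at 0.34 ± 0.08), and of 18 glycolysis genes 1, Mif at 0.47 ± 0.11. Mif was not called by DESeq2 (0.35), without the sham library at 6 h (0.30) or without the irradiated library at 6 h (0.39).

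Immediate early genes, which cells induce within minutes of a stimulus and also during tissue dissociation, were in part higher. Of 37 tested, 14 were called higher and 1 (the heat shock gene Hspa1b) lower, with a median of 0.24. Hspa1b, at -1.25 ± 0.36, was not called without the sham library at 6 h (-0.90) or the irradiated library at 1 week (-1.11). Dusp1, a phosphatase that shuts off MAP kinases, had 441, 409.8, 437 and 795 CPM in Apoe-rich cells and 210.0, 270.5, 328 and 292 CPM in the others. All Apoe-rich sums were above all others, and the difference was 0.96 ± 0.09. Fos was at 0.67 ± 0.07, but in sham at 1 week it stood at 1419 CPM in Apoe-rich cells and 1504 CPM in the others. Ier2 was at 0.84 ± 0.08 (0.80 and not called by DESeq2), with 377 against 437.5 CPM in that library. Btg2, an antiproliferative gene also in the p53 list, was at 0.39 ± 0.07 and higher in all 4 libraries. The part of dissociation in these values was not tested.

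The factor CREB drives many immediate early genes through the sequence TGACGTCA. It was in 3.03% of all windows, in 11 of 164 (6.71%) of genes called higher and in 2 of 68 (2.94%) of genes called lower. Of 11 immediate early genes called higher and with a window it was in 2, Btg2 and Dusp1, shown with the motif in capitals.
Btg2, chr1:134079284-134079351, minus strand: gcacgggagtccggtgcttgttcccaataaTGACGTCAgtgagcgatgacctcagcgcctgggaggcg
Dusp1, chr17:26508578-26508645, minus strand: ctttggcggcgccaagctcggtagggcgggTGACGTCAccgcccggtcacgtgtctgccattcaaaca
For the AP-1 motif TGANTCA the shares were 3.80% of all windows and 7.93% of genes called higher, and for the PU.1 core GAGGAAGT 2.63% and 4.27%. Each was in 2.94% of genes called lower and in 0 of the 11 immediate early genes. The E-box CACGTG was in 2 of these 11, Dusp1 and Klf6, and stands in small letters in the Dusp1 stretch. Both strands were searched, and no set of windows was tested against another.

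Chemokine and NF-kB genes were higher for 11 of 32 tested members and lower for 2, with a median of 0.38. Ccl3, a chemokine that attracts monocytes and T cells, had 806.8, 1320.1, 2031 and 914 CPM in Apoe-rich cells and 251, 1377, 664 and 422 CPM in the others. Ccl4 had 810.5, 1613, 2172 and 1017 CPM against 333, 2371, 834 and 598 CPM. Both were higher in Apoe-rich cells of 3 libraries and lower in those of the irradiated library at 6 h. The differences were 1.11 ± 0.08 and 0.73 ± 0.07, and DESeq2 did not call Ccl4 (0.82, DESeq2 adjusted p = 0.18). Cd83, an activation marker of antigen-presenting cells, was higher in all 4 libraries, at 0.94 ± 0.10, and the inhibitor gene Nfkbia was at 0.47 ± 0.09. Ccl2 (0.62 ± 0.11) had 28.3% of its Apoe-rich UMIs in 1 cell, and without the highest cell of each library it was at -0.24 and not called, and without the sham library at 1 week it was at 0.37 and not called. Cxcl2 had 25 UMIs in 3 Apoe-rich cells of 1 library and Ccl7 65 UMIs in 11 cells, so neither value describes the class. The members called lower, Ccl5 at -0.67 ± 0.16 and Ccl9 at -0.34 ± 0.09, were lower in Apoe-rich cells of 3 and 4 libraries. Ccl5 was not called without sham at 6 h (-0.32) and was at 0.04 with DESeq2, and Ccl9 was not called without sham at 1 week (-0.18) or irradiated at 1 week (-0.28).

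Antigen presentation genes were higher for 7 of 25 tested members and lower for 0, but the class II values came from 1 cell. Cd74, the invariant chain gene, had 118, 1623, 141 and 32.5 CPM in Apoe-rich cells and 59.8, 327, 48.01 and 18.5 CPM in the others, a log2 difference of 1.82 ± 0.11 that was higher in all 4 libraries. A single Apoe-rich cell of the irradiated library at 6 h held 424 of its 819 UMIs (51.8%), and without the highest cell of each library the difference was 0.91 and still called. The same cell, of 7536 UMIs, had 117 H2-Aa, 131 H2-Ab1 and 77 H2-Eb1 UMIs, 113 Apoe and 65 Lyz2 UMIs, 6 Tmem119, 3 Ccr2 and 0 P2ry12 UMIs. It held 98.3% of the Apoe-rich UMIs of H2-Aa and all of those of H2-Eb1. H2-Ab1, called at 2.66 ± 0.22, was at 0.41 and not called without the cells that carry an H2-Aa UMI (3 Apoe-rich and 23 others). Class I genes were measured in many cells. H2-D1 was at 0.48 ± 0.08, H2-K1 at 0.32 ± 0.08 and B2m, the shared light chain gene, at 0.25 ± 0.06. H2-K1 was not called without sham at 6 h (0.33), irradiated at 6 h (0.31), irradiated at 1 week (0.29) or the highest cells (0.21). B2m was not called without sham at 1 week (0.21) or the highest cells (0.17). H2 genes are close paralogs, so their single values are uncertain.

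The remaining lists had few calls. Of 46 interferon response genes, 2 were called higher (Ifi204 and Ifi27l2a) and 0 lower, with a median of -0.02. Neither was called without the irradiated library at 6 h (Ifi204 0.43, Ifi27l2a 0.30), and Ifi27l2a was not called without the sham library at 1 week (0.35). Without the highest cells Ifi204 was at 0.22 and Ifi27l2a at -0.0099, both uncalled. Of 31 complement, Fc and phagocytic receptor genes, 4 were called higher (Itgax, Axl, C3ar1 and Tyrobp), among them the complement receptor gene C3ar1 at 0.58 ± 0.09. All but C3ar1 were also among the called genes of the disease-associated list. Of 38 p53 targets, 1 was higher (Btg2) and 2 lower (Ccnd1 and Gdf15). The Gdf15 value of -0.58 ± 0.18 turned to 2.17 without the irradiated library at 6 h. Cdkn1a, the p21 gene and main p53 target, had 58.2, 2882, 26.9 and 2164 CPM in Apoe-rich cells and 47.2, 3001, 53.8 and 2226 CPM in the others. It followed irradiation in both classes, and its difference between them was 0.01 ± 0.09 (adjusted p = 0.99). Of 40 cell cycle genes, 2 were called lower. Birc5, the survivin gene, had no UMI in Apoe-rich cells, at least 2.71-fold lower with 3 counts over the class in place of 0. Its call was lost in each of the 4 fits without 1 library (adjusted p = 0.054 to 0.50). Top2a, the topoisomerase of dividing cells, had 2 UMIs in Apoe-rich cells, and its level in the others was 9.05 times as high (2.48 to 75.1). The fitted log2 difference of Top2a went from -3.00 to -1.61 without the sham library at 6 h and to -2.56 without the irradiated library at 1 week, and neither fit called it. The list's median was -0.66, or -0.56 with the 7 genes without a UMI in Apoe-rich cells at their bound.

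Levels were also followed along the Apoe share, in grades over all libraries. Lyz2 stood at 129 CPM in the 50% of microglia with the least Apoe, then at 187, 263 and 371 CPM up to the 95th percentile, at 518 CPM from the 95th to the 99th and at 1697 CPM in the top 1%. The disease-associated list went from 3.52% of UMIs in the lowest grade to 5.49% in the top 1%, and the homeostatic list from 11.9958% to 8.86%. P2ry12 went from 6094 to 3018 CPM. The top 1% held 78 cells, of which 44 were from the sham library at 6 h, 21 from irradiated at 6 h, 7 from sham and 6 from irradiated at 1 week. There Lyz2 was at 2328, 941, 1511 and 483 CPM, against 441, 681, 496 and 506 CPM from the 95th to the 99th percentile. The step to the top 1% was thus found in 3 libraries and not in irradiated at 1 week, which rests on 6 cells.

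**Figure D5:**
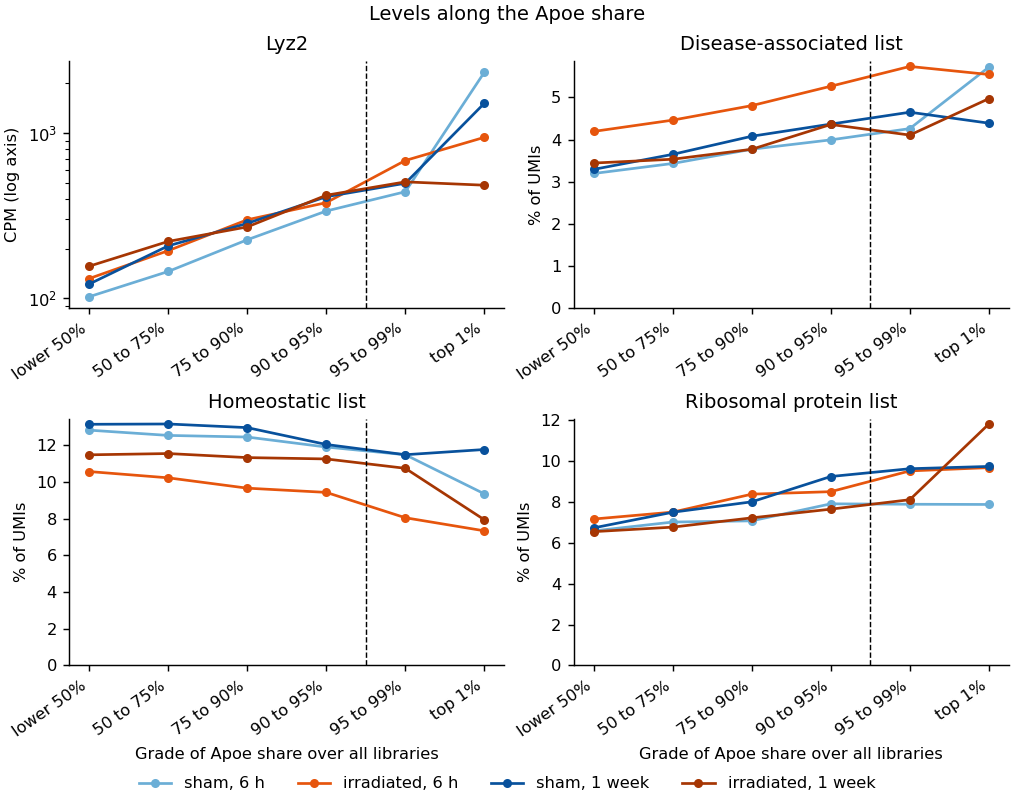
Levels in 6 grades of Apoe share (x axis) for each library: Lyz2 in CPM on a log axis, and 3 gene lists as a percentage of UMIs from 0. Apoe-rich cells lie to the right of the dashed line, and between the lowest grade and the top 1% the disease-associated list goes up and the homeostatic list down in every library, though not at every step.

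Irradiated and sham libraries were compared within each class, with exact conditional binomial 95% intervals and no test, since there was 1 library per group. These intervals cover counting error only, and not the spread between cells, mice or libraries. At 6 h, 9.43% of 3490 genes were at least 1.5-fold higher and 14.4% lower in irradiated Apoe-rich cells, and 8.8% and 8.87% of 9689 genes in the other microglia. The classes differ in the genes measured and in depth, so these shares cannot be compared in size. The p53 targets were 1.5-fold higher for 13 of 16 measured members in Apoe-rich cells (median log2 ratio 2.33) and for 26 of 33 in the others (2.52). Cdkn1a went from 47 to 1238 UMIs in Apoe-rich cells, a log2 ratio of 5.63 (5.21 to 6.08), and the others had 5.99 (5.85 to 6.14). The pro-death gene Bax was at 2.13 (1.83 to 2.44) and 2.41 (2.31 to 2.50). Interferon genes were higher for 14 of 22 members in Apoe-rich cells and for 25 of 45 in the others. Homeostatic genes were lower for 16 of 33 members in Apoe-rich cells and for 11 of 34 in the others, with P2ry12 at -1.80 (-1.92 to -1.68) and -1.14 (-1.17 to -1.12). Ccl4 was at 0.99 (0.84 to 1.15) in Apoe-rich cells and 2.83 (2.77 to 2.89) in the others.

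At 1 week, 35 sham and 51 irradiated Apoe-rich cells left 902 genes measured, of which 9.65% were 1.5-fold higher and 6.32% lower. In the other microglia the shares were 3.46% and 3.09% of 9339 genes. The Apoe-rich sums held 150663 UMIs in sham and 187455 in irradiated, against 5247229 and 6939795 in the others. With unlike genes and depths, the shares of the classes cannot be compared in size. Among Apoe-rich cells Cdkn1a had 400 UMIs after irradiation and 4 without it, a log2 ratio of 6.33 (4.96 to 8.21), and the others had 5.37 (5.20 to 5.55). The homeostatic list had 4 of 31 members higher and 0 lower in Apoe-rich cells, and 1 of 34 higher and 0 lower in the others. Lyz2 was at -0.48 (-0.89 to -0.06) in Apoe-rich cells and at 0.22 (0.10 to 0.34) in the others. Its UMIs were uneven between cells: in sham at 1 week the 7 cells of the top 1% of Apoe share stood at 1511 CPM. The 28 cells from the 95th to the 99th percentile stood at 496 CPM. The intervals leave this out, and a difference between the classes in these ratios was not tested.

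Whether the difference between Apoe-rich and other cells itself differed with treatment was tested with a class by treatment term, on 2 residual degrees of freedom. The edgeR quasi-likelihood test called 8 of 11096 genes (0.0721%), with 422 at an unadjusted p under 0.05. These were Ccl4, Ccl3, Gdf15, Mt1, Cd74, H2-Aa, H2-Ab1 and H2-Eb1, and DESeq2 called 0. Ccl4 and Ccl3 had the class difference reduced in irradiated libraries by -1.34 ± 0.15 and -1.23 ± 0.16. For P2ry12 the term was -0.30 ± 0.13, for Lyz2 -0.57 ± 0.17 and for Cdkn1a -0.16 ± 0.24, and none of these passed (adjusted p = 1.0, 0.46 and 1.0).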

How the data were processed

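The authors deposited raw UMI counts per gene and barcode. The submitters' processing notes name Cell Ranger 2.0 and mm10. How barcodes were called, and which annotation was counted, is not given in the sources used here. UMI counts were summed per library and class (8 sums), leaving out Apoe, Tmem119, Mrc1 and Pf4. Genes with 30 or more UMIs over the sums were tested with edgeR 4.0.16 (R 4.3.3, TMM, quasi-likelihood, library as a block, Benjamini-Hochberg, threshold 0.05), with DESeq2 1.42.0 as an alternative. Both sums of a pair are cells of the same library, which is the pairing. SE is the log2 difference divided by the square root of F. CPM is UMIs of a gene per 1000000 UMIs of the summed class. Irradiation ratios needed 50 UMIs over both libraries and had no test. Scrublet (scanpy 1.11.5) used an expected rate of 0.06. The procedure was tested on simulated data, in which the variation of every gene followed the trend over all genes. Genes that vary more than that were not covered. Of 27998 identifiers, 27645 matched GENCODE vM21. The 16 gene lists and 14 marker lists, like the cell rule, were chosen with earlier results of these data known. The gene lists share members, so a called gene can count in more than 1 list. Named genes were up to 15 called in each direction with the largest difference, the same direction in all libraries and 200 UMIs, up to 4 called per list, up to 10 of the treatment term, and a set named whatever its result. Further genes named beside them were chosen after their values were seen. S100a8, S100a9, Retnlg and Ly6c2 were listed at 0 in every cell. Some genes of this rule are not reported here.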

Additional observations from a re-analysis of the deposited data

Results flagged for a closer look

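For 8 genes the difference between Apoe-rich and other microglia was itself different in irradiated and sham libraries, by the edgeR quasi-likelihood test of the class by treatment term (log2, irradiated minus sham, adjusted p under 0.05). The chemokine genes Ccl4 and Ccl3 were at -1.34 ± 0.15 and -1.23 ± 0.16. In the sham libraries their Apoe-rich sums were above the others, while in irradiated at 6 h Ccl4 was at 1613 CPM in Apoe-rich cells against 2371 CPM in the others, and in irradiated at 1 week at 1017 against 598 CPM.

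The metallothionein gene Mt1 was at -0.82 ± 0.18, with 518, 829, 484 and 249 CPM in Apoe-rich cells and 214, 623, 285 and 250.5 CPM in the others. Gdf15, a stress cytokine gene, was at -4.52 ± 0.64. It had 14 UMIs in Apoe-rich cells and 4 in the others of the sham library at 6 h, against 80 and 2290 in irradiated at 6 h, and 1 Apoe-rich cell held 19 of its 95 Apoe-rich UMIs.

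Cd74 was at 1.06 ± 0.23, H2-Ab1 at 3.69 ± 0.46, H2-Aa at 10.60 ± 2.20 and H2-Eb1 at 11.28 ± 2.27. One irradiated cell at 6 h held 51.8, 84.0, 98.3 and 100% of the Apoe-rich UMIs of these 4 genes, and without cells carrying an H2-Aa UMI no gene with a positive term was called. The fitted values of H2-Aa and H2-Eb1 rest on sums of 0 in 3 Apoe-rich libraries and are no measure of size.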

How the results depend on the processing

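With 360 genes called in the comparison of classes, DESeq2 called 207, members from the top 2% of Apoe share gave 227, and fits without 1 library gave 230 to 314. The fit with no replicate block (no library term) called 2, and the counts of the 6 lists below became 1 for the disease-associated list and 0 for the others. The disease-associated count of 27 was 16 with DESeq2 and 16 without each gene's highest Apoe-rich cell in each library, and 20 to 28 without 1 library. DESeq2 gave no adjusted p for a number of genes, among them Lgals3 (2.11) and Cst7 (1.59). Such genes could not be called in the DESeq2 counts. The homeostatic count of 16 was 8 with DESeq2, 9 with a minimum of 200 UMIs and 8 to 14 without 1 library. The lysosomal count of 14 was 7 for the top 2%, 9 for cells with at least 3000 UMIs, 8 without the highest cells and 9 to 13 without 1 library. Ribosomal protein genes went from 53 to 21 for the top 2% and to 45 to 52 without 1 library. Immediate early genes stayed at 10 to 17 without 1 library. The chemokine count of 11 was 4 with DESeq2, 6 without the highest cells and 8 to 11 without 1 library. The treatment term called 0 genes with DESeq2, 4 from 200 UMIs, 5 without H2-Aa cells and 2 without the highest cells. Leaving out the highest cells turned Ifi27l2a to -0.0099, Ccl7 to -0.79 and H2-Aa to -0.37. H2-Aa was at -0.30 without cells carrying a marker of another type, and Gdf15 at -0.90 to 2.17 in the fits without 1 library. Leaving out the highest cells called 123 genes higher and 196 lower, of which 123 and 102 were among the 255 and 105 called with them. This setting takes UMIs out of the Apoe-rich sums only, which lowers those sums by construction. How much of the change in calls comes from that was not tested. The treatment term was not refitted without single libraries, and ratios within a class have no alternative. Over 85 named genes and 1543 alternatives, 1289 kept direction and side of the threshold, 245 lost the call, 5 turned and 4 gained it. DESeq2 entered this tally with 31 kept and 3 lost, and genes without a DESeq2 adjusted p were left out. The highest-cell and H2-Aa settings were chosen after seeing the data. Shares of Apoe-rich cells moved by less than their intervals under all 4 settings run. Rare genes and both libraries at 1 week are limited by 35 and 51 Apoe-rich cells.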
